A study of Mus musculus with 28 samples.

Results

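The genes described here are the Rab GTPases, taken as every probe set whose platform annotation named exactly 1 gene with a symbol made of Rab, a number and an optional letter. The rule found 50 Rab genes measured by 95 probe sets, out of 12393 genes named singly and 22690 probe sets in all. Each Rab gene was represented in each experiment by the probe set of highest mean. RNA of mouse bone marrow cells was hybridised to 28 Affymetrix expression arrays in 2 experiments. The submitters call these noncomparable because of separate days of RNA amplification, so no level was compared between them. The transduced experiment held granulocyte-macrophage progenitors (GMP) with the leukaemia fusion MLL-AF9 (3 arrays) or with green fluorescent protein (GFP, 3 arrays). In the sorted experiment, leukaemic cells of the lineage-negative, Sca-negative, Kit-positive, Fc receptor-positive, CD34-positive gate (L-GMP, 6 arrays) were set beside 4 normal sorts.

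The normal sorts were a lineage-negative, Sca-positive, Kit-positive fraction rich in haematopoietic stem cells (HSC, 5 arrays), the common myeloid progenitor gate (CMP, Sca-negative, Kit-positive, labelled Fc receptor-positive and CD34-low, 4 arrays), GMP (labelled Fc receptor-positive and CD34-high, 4 arrays) and megakaryocyte-erythroid progenitors (MEP, Fc receptor-negative and CD34-negative, 3 arrays). The labels give neither the strain or age of the mice, the promoter that drove the fusion, nor the origin of the leukaemia. Nothing says that replicates came from separate animals, so p-values measure the spread between these samples, which may be technical. In such bulk samples, fewer cells of a type and less RNA per cell cannot be told apart.

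Rab proteins are small GTPases of the Ras superfamily that switch between a GDP-bound and a GTP-bound form. In the GTP-bound form, each sits on its own set of membranes by means of prenyl anchors and recruits effectors that bud, move, tether or fuse vesicles. Exchange factors turn them on, GTPase activating proteins turn them off, and GDP dissociation inhibitors take them back off the membrane. In myeloid cells they are known for phagosome maturation, granule formation and secretion, and in megakaryocytes and platelets for the making of dense granules, a lysosome-related organelle.

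Levels below are log2 values of array intensity scaled within the experiment. A floor was set at the 25th percentile of each experiment (5.27 in the sorted and 6.29 in the transduced experiment on the log2 scale), so a fold against a group at or mostly at the floor is a lower bound. A gene was tested if its probe set exceeded the median of its experiment on at least 3 arrays. This kept 43 of the 50 Rab genes among 8422 genes in the sorted experiment and 35 among 7235 in the transduced experiment. Rab15, Rab20, Rab27b, Rab30, Rab34 and Rab3b passed in neither experiment, 9 members passed in the sorted experiment only, and Rab40b passed in the transduced experiment only. Of the 43, 29 lay above the median on all 22 arrays. Rab6b and Rab23 passed through HSC arrays alone and Rab37 through CMP arrays alone, so these 3 had to differ between groups, and for them the contrasts of that group are given as values with no p. Rab32 passed through L-GMP and GMP arrays alone and is treated likewise. Rab4a passed through HSC, CMP and MEP arrays, so its contrasts of these with GMP and L-GMP are given with no p. Rab38 and Rab5b passed through all 4 normal sorts and through 0 L-GMP arrays, so their contrasts with L-GMP are given with no p. Rab32, Rab4a, Rab38 and Rab5b stay in the counts below. Changes are given with the standard error (SE) of the limma fit, and a gene was called at a Benjamini-Hochberg adjusted p under 0.05 over all genes tested.

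RefSeq promoter windows of assembly GRCm38.p6 were found for 42 members, and the 250 bases before the gene start are shown for 4 of those whose levels the results turn on. Rab6b was high in HSC, Rab31 was low in MEP, and Rab4b and Rab29 were higher in L-GMP than in every normal sort. They lie at chr9:103111824-103112073 (plus strand) for Rab6b, chr17:65772753-65773002 (minus strand) for Rab31, chr7:27178884-27179133 (minus strand) for Rab4b and chr1:131867027-131867276 (plus strand) for Rab29. Each is printed 5′ to 3′ along the strand of the gene, ending just before the gene start. Capitals mark a match, on either strand, to GATAA (the core bound by GATA factors), GGAAGT (an ETS core), TGTGGT (a RUNX core) or CACGTG (an E-box bound by MITF and TFEB family factors).
Rab6b: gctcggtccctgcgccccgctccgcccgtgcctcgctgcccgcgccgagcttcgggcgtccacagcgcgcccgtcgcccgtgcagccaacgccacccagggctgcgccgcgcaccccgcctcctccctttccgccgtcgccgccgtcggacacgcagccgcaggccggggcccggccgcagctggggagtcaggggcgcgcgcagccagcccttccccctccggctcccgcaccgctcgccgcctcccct
Rab31: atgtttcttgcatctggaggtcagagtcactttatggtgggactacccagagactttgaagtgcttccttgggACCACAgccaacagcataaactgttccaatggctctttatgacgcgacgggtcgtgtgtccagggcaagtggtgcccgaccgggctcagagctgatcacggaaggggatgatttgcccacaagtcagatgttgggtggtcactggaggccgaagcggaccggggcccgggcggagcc
Rab4b: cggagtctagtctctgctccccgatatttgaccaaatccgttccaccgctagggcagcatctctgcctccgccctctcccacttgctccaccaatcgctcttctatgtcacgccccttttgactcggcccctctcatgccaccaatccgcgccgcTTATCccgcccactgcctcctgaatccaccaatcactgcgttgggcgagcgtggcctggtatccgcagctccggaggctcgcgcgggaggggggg
Rab29: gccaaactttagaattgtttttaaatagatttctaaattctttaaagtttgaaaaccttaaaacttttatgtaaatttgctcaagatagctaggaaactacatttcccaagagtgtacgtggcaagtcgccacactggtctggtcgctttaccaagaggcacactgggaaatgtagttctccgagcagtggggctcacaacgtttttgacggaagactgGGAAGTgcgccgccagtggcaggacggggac
The Rab4b window holds GATAA at -95, the Rab31 window TGTGGT at -177 and the Rab29 window GGAAGT at -31, counted from the gene start, while these letters were not in the Rab6b window. Over the 54 windows of members, GATAA was in 12, GGAAGT in 10, TGTGGT in 8 and CACGTG in 5. Over all 32851 windows of that table, the shares were 22.6% for GATAA, 19.7% for GGAAGT, 14% for TGTGGT and 6.02% for CACGTG. Member windows had a median GC content of 60.2% and 15 CpG dinucleotides, against 52.4% and 6 over all windows. GC content ran from 44.0% in the Rab29 window to 80.8% in the Rab6b window. Promoters of Rab2a, Rab4a, Rab7b, Rab18, Rab27b, Rab30, Rab37 and Rab38 were not analysed here.

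Markers of the labelled cells were highest where the labels place them for HSC, GMP and MEP. The summed linear level of 9 measured MEP markers was 13317 to 20556 in MEP, and at most 7122 in any other sort. The sum of 9 measured GMP markers was 34883 to 39997 in GMP and 21258 to 30698 in L-GMP. A list of 7 HOX and HOX-partner genes summed to 6151 to 9648 in L-GMP and 1504 to 2295 in GMP. It did not set L-GMP apart from HSC, at 7010 to 7878, and stood at 3949 to 4810 in CMP. The CMP list did not set CMP apart, with 5269 to 5555 in CMP and 5115 to 5668 in HSC. Immediate early and stress genes, 22 in number, had a mean log2 level of 6.59 to 7.51 on the L-GMP arrays. Replicate 1 of HSC, CMP and GMP stood at 8.28, 7.04 and 6.89, against 8.66 to 11.17 on the other normal arrays. The log2 ratio of 3′ to 5′ control signal was 2.85 ± 0.08 in L-GMP (SD, n = 6), 3.09 ± 0.15 in HSC, 3.0 ± 0.06 in CMP, 2.92 ± 0.31 in GMP and 3.10 ± 0.10 in MEP.

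L-GMP differed from normal GMP in 11 of the 43 Rab genes, with Rab38 far lower and the other changes under 2-fold. Rab4b, Rab29, Rab43, Rab24, Rab3d, Rab7 and Rab14 rose, and Rab38, Rab10, Rab9 and Rab23 fell. The 7 higher and 4 lower calls make 25.6% of the members tested, beside 33.5% of all genes (15.2% higher and 18.3% lower), so the called share was below that of genes at large. Without Rab6b, Rab23 and Rab37, 7 of 40 were higher and 3 lower (25% called). Of all genes, also without those that passed through 1 group, 33.1% were called (14.5% higher and 18.6% lower). The median log2 change of the members was 0.12 and that of all genes 0.01, with 29 of 43 members and 4421 of 8422 genes above 0. Groups did not overlap for 10 of the 43 members, beside 25.5% of all genes. Without replicate 1 of HSC, CMP and GMP, 9 members were called, a count given without the share of all genes.

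**Figure D1:**
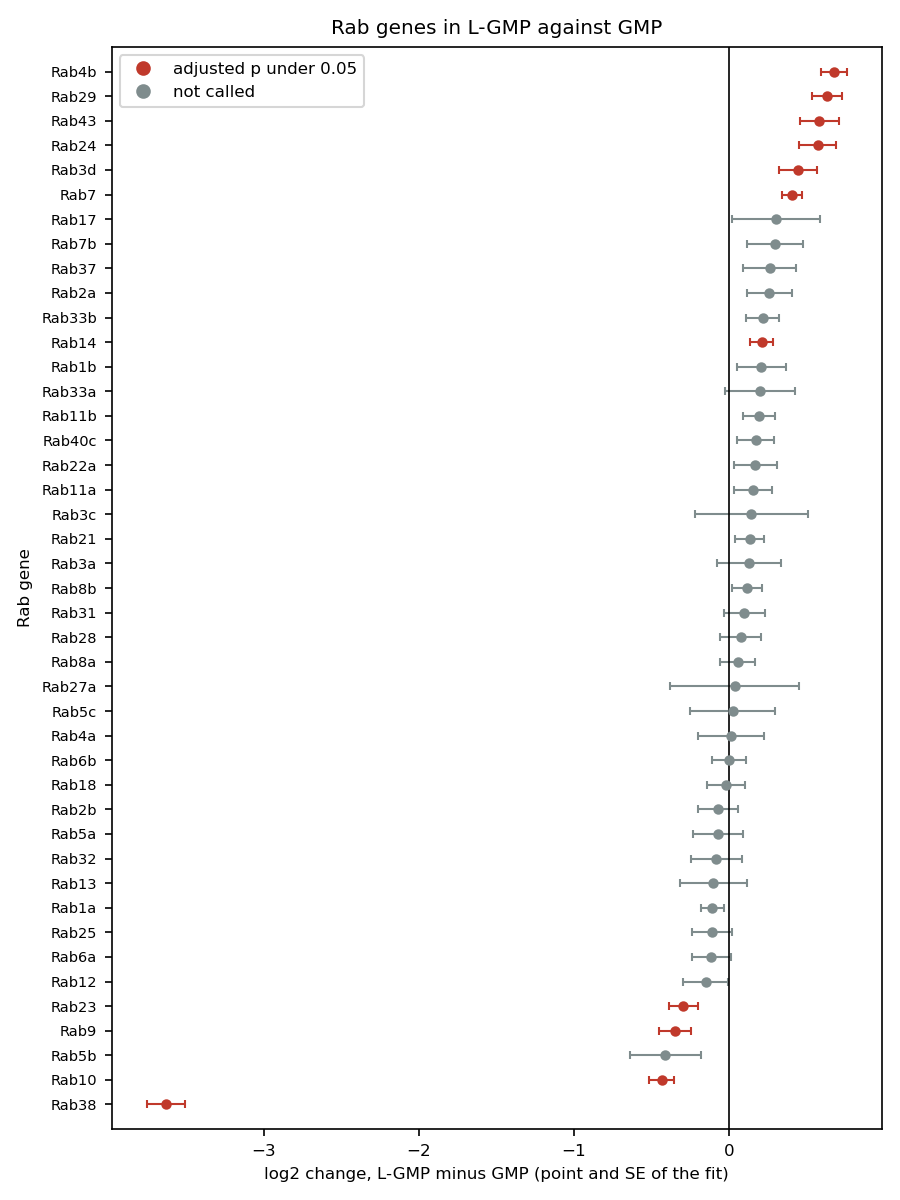
Log2 change of the 43 tested Rab genes in L-GMP minus GMP, as points with the SE of the limma fit, sorted by size, with members called at an adjusted p under 0.05 in red. Rab38 stands alone at -3.63, and the other called members lie between -0.43 and 0.68.

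Against the other normal sorts, L-GMP differed in 20 members from HSC (11 higher and 9 lower, beside 47.2% of all genes, 23.4% higher and 23.8% lower), in 18 from CMP (10 higher and 8 lower, beside 39.9%, 18.4% and 21.5%) and in 22 from MEP (14 higher and 8 lower, beside 45.2%, 22.3% and 22.9%). These comparisons share the L-GMP arrays. By the set of highest mean, Rab3d, Rab4b, Rab7, Rab24 and Rab29 were called higher in L-GMP in all 4 comparisons. Rab10, Rab23 and Rab38 were called lower in all 4. The share of all genes with these patterns was not counted. Another kept Rab10 set did not lie lower in L-GMP than in HSC, at 7.72 to 8.42 against 7.60 to 8.11. Without Rab6b, Rab23 and Rab37, which passed the filter through 1 group, the lower calls were 6 against HSC, 6 against CMP and 6 against MEP. Of all genes on the same basis, 23.5%, 21.4% and 23% were lower in that order. The higher calls kept their numbers, beside 22.8%, 17.6% and 21.6% of all genes. The fit called 14 members in no comparison with L-GMP, a count that was not taken over all genes.

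Among the normal sorts, 23 of 43 Rab genes differed (limma F test over HSC, CMP, GMP and MEP), which is 53.5% beside 46.7% of all genes. Of the 23, 11 had their highest mean in HSC, 8 in GMP, 3 in MEP and 1 in CMP. Of all genes that differed by this test, 33.6% were highest in HSC, 36% in GMP, 25.3% in MEP and 5.14% in CMP. The lowest mean was in MEP for 12 members and in GMP for 10, which was not counted over all genes. HSC against GMP called 13 members higher and 6 lower (beside 41.2% of all genes, 19.4% higher and 21.8% lower), and HSC against MEP 14 higher and 1 lower (32.9%, 17.4% and 15.5%). HSC against CMP called 5 higher and 0 lower (13.4%, 6.01% and 7.43%), and CMP against GMP 6 higher and 4 lower (16.8%, 8.6% and 8.18%). Of MEP against GMP, 6 were higher and 11 lower (27.5%, 11.9% and 15.6%), and of MEP against CMP, 1 was higher and 7 lower (17%, 6.19% and 10.9%). The next counts leave out Rab6b, Rab23 and Rab37, and the background leaves out other genes that passed through 1 group. Of 40 members, 20 differed by the F test (50%, beside 46.3% of all genes). Of these 20, 9 were highest in HSC, 8 in GMP and 3 in MEP, which was not counted over all genes on this basis. Rab32 and Rab4a, which the filter also favoured in some sorts, stay in these counts. On the same basis HSC against GMP called 10 higher (18.9%), HSC against MEP 12 (16.8%), HSC against CMP 3 (5.3%), CMP against GMP 5 (8.3%) and MEP against GMP 5 (11.8%), while the lower calls kept their numbers. Some of the counts over all 43 rested on 1 array: without CMP replicate 4, HSC against CMP called 1 member and CMP against GMP 6. Without MEP replicate 3, MEP against CMP called 4.

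**Figure D2:**
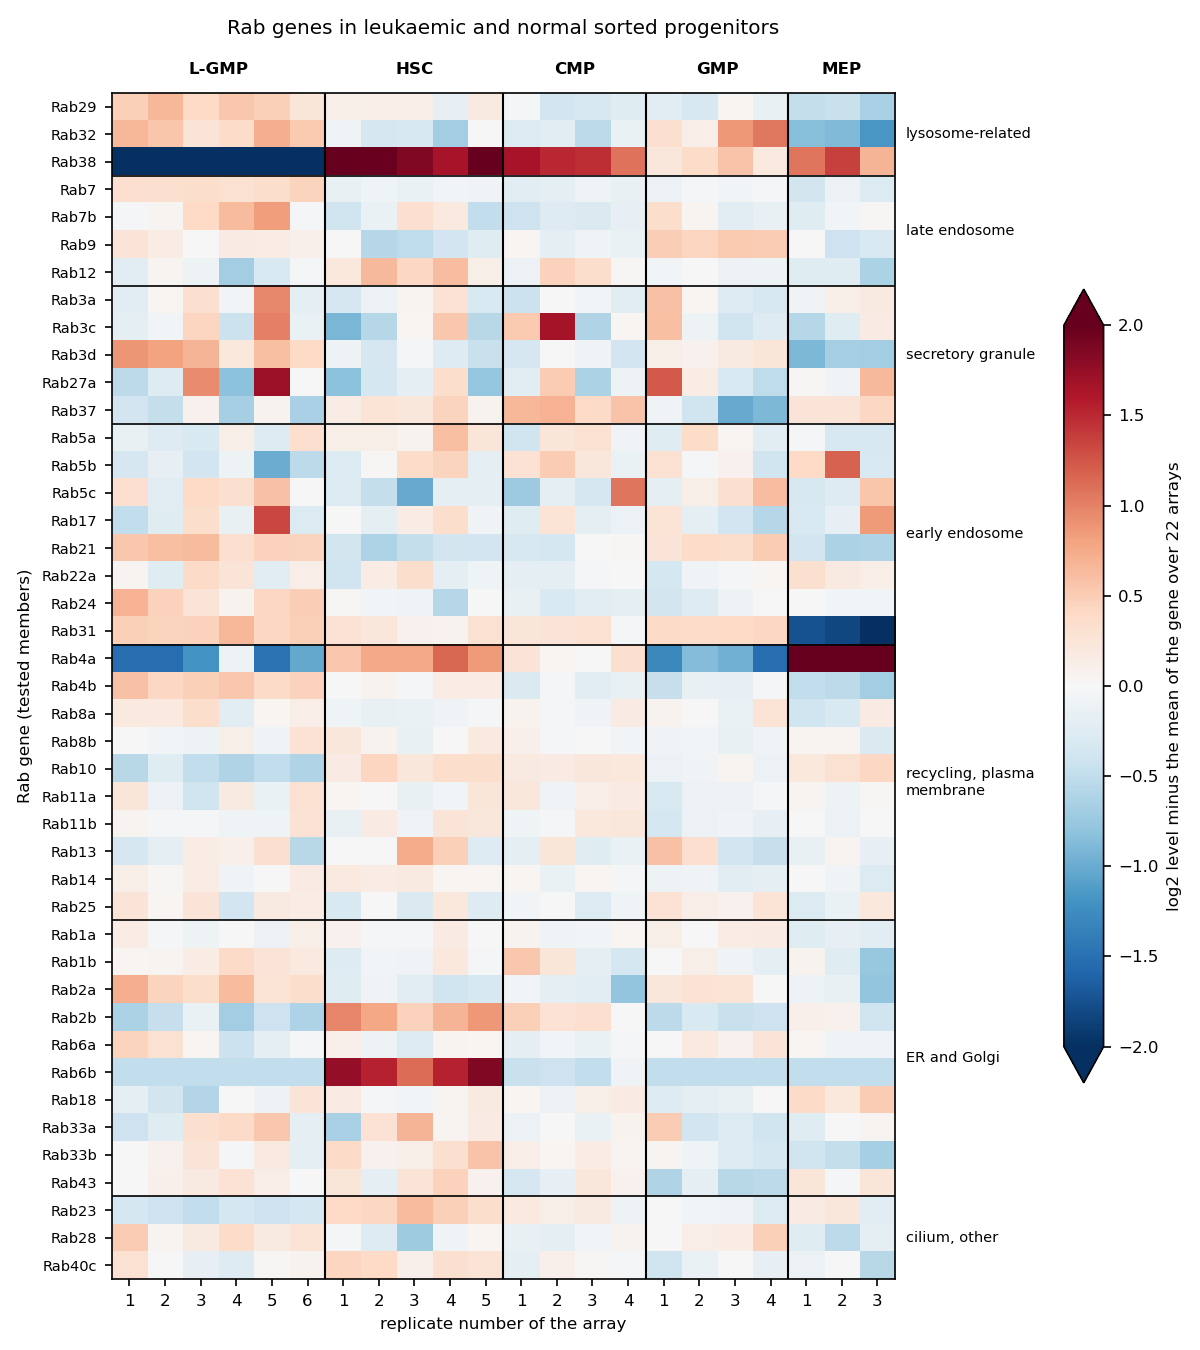
Log2 level of the 43 tested Rab genes (rows, by role) on the 22 arrays of the sorted experiment (columns, by group and replicate number), each minus the mean of the gene over the 22 arrays, with colours ending at 2 in either direction. The low Rab38 row in L-GMP, the high Rab6b row in HSC, the high Rab4a and low Rab31 rows in MEP stand out.

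The Rab32 branch, which serves lysosome-related organelles such as melanosomes and platelet dense granules, split in L-GMP. Of its 3 members, Rab38 fell, Rab29 rose and Rab32 was not called against GMP (33.5% of all genes were called). All 3 differed among the normal sorts by the F test, beside 46.7% of all genes, each in its own order. For Rab32 this call follows in part from the filter, which it passed through its L-GMP and GMP arrays.

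Rab38, a regulator of cargo delivery to melanosomes and dense granules, was at 5.27 (lowest), 5.27 (median) and 5.35 (highest) in L-GMP, with 4 of 6 arrays at the floor. Its levels were 8.81, 8.95, 9.16 and 8.77 in GMP. All L-GMP arrays thus lay below all normal arrays, with no overlap. The log2 change was -3.63 ± 0.12 SE, at least 12.4-fold lower in L-GMP (6 against 4 arrays). It is given with no p, since Rab38 passed the filter through the normal sorts alone. Immediate early genes, given above, were also lower in L-GMP than on 3 of the 4 GMP arrays, and their part in the Rab38 change was not tested.

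Normal sorts held more Rab38 outside GMP. Levels were 10.67, 10.56, 10.44, 10.23 and 10.58 in HSC, 10.23, 10.10, 10.06 and 9.67 in CMP, and 9.65, 9.95 and 9.26 in MEP. GMP was thus the lowest normal sort and HSC the highest. The change of HSC against GMP was 1.57 ± 0.13 SE (adjusted p = 4.7e-09), of CMP against GMP 1.09 ± 0.14 and of MEP against GMP 0.70 ± 0.15 (adjusted p = 0.000996). L-GMP was at least 36.8-fold lower than HSC (-5.20 ± 0.12 SE), at least 26.4-fold lower than CMP and at least 20.1-fold lower than MEP. Rab38 was measured by a single kept probe set.

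Rab32, the close relative of Rab38 that also acts at mitochondria and phagosomes, followed another order. It was at 6.91 (lowest), 7.18 (median) and 7.36 (highest) in L-GMP, and at 6.95, 6.78, 7.51 and 7.70 in GMP. These groups overlapped (log2 change -0.08, not called). In MEP it was 5.79, 5.75 and 5.47, below every GMP array, a change of -1.56 ± 0.19 SE or 2.96-fold lower. In HSC it was 6.55, 6.31, 6.32, 5.95 and 6.65, also below every GMP array (-0.88 ± 0.17 SE). L-GMP exceeded HSC by 0.80 ± 0.15 and MEP by 1.48 ± 0.18 on the log2 scale (SE). These differences follow in part from the filter, which Rab32 passed through its L-GMP and GMP arrays.

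Rab29, which recruits the kinase LRRK2 to Golgi and lysosomal membranes, was at 9.80 (lowest), 10.04 (median) and 10.22 (highest) in L-GMP, and at 9.34, 9.23, 9.59 and 9.41 in GMP. Every L-GMP array lay above every GMP array. The change was 0.63 ± 0.10 SE, 1.55-fold higher (adjusted p = 3.6e-05). HSC stood between them at 9.68, 9.70, 9.70, 9.40 and 9.75, and MEP was lowest at 9.08, 9.12 and 8.92. MEP against GMP gave -0.36 ± 0.12 SE (adjusted p = 0.0251).

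**Figure D3:**
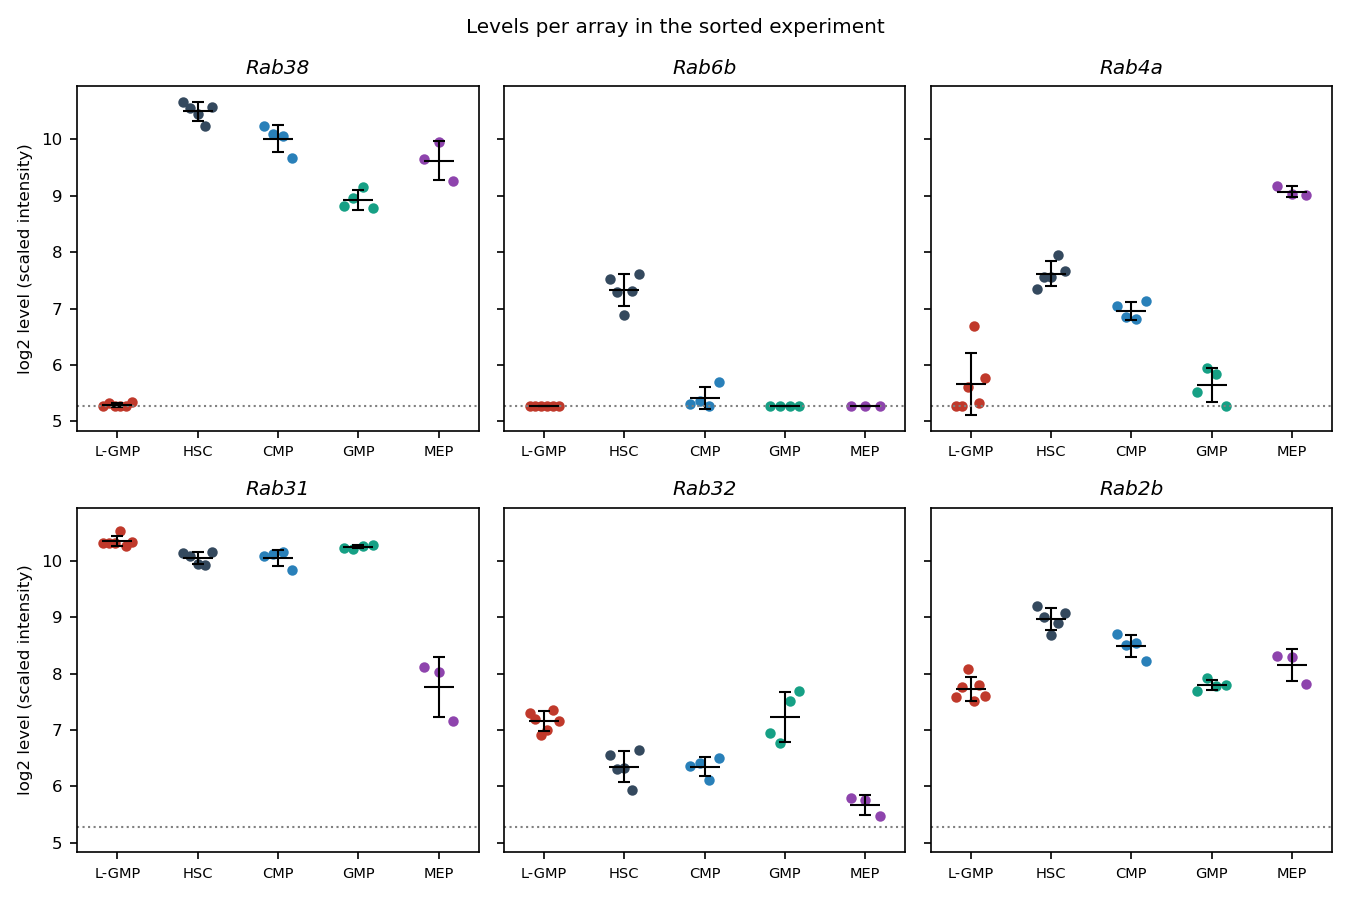
Log2 level on each array of the sorted experiment (points) for Rab38, Rab6b, Rab4a, Rab31, Rab32 and Rab2b, with the group mean and SD in black and the floor as a dotted line. Rab38 lies at or near the floor in L-GMP alone, Rab6b is above the floor mainly in HSC, Rab4a is highest and Rab31 lowest in MEP.

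Late endosomal Rab genes changed in both directions in L-GMP, by small amounts. Of 4 members, Rab7 rose, Rab9 fell, and Rab7b and Rab12 were not called against GMP, beside 33.5% of all genes called. Rab7 directs the fusion of late endosomes with lysosomes. Its levels were 10.76 (lowest), 10.79 (median) and 10.90 (highest) in L-GMP, and 10.33, 10.44, 10.39 and 10.44 in GMP. The groups were separate and tight, with a change of 0.40 ± 0.06 SE, 1.32-fold (adjusted p = 4.93e-05). A second, dimmer Rab7 probe set that passed the filter through 6 L-GMP and 2 GMP arrays gave 0.78 ± 0.12 SE.

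Rab9, which returns mannose 6-phosphate receptors from late endosomes to the Golgi, was the GMP-high member of the group. It was at 8.67 to 8.93 in L-GMP (median 8.83), and at 9.17, 9.10, 9.20 and 9.19 in GMP. No other sort reached the GMP arrays, with 8.11 to 8.68 in HSC, 8.48 to 8.72 in CMP and 8.26 to 8.68 in MEP. The change of L-GMP against GMP was -0.35 ± 0.10 SE (adjusted p = 0.0111), and that of HSC against GMP was -0.82 ± 0.11 SE (adjusted p = 2.41e-06). Rab12, linked to degradation of recycling receptors, was higher in HSC than in GMP (0.47 ± 0.15 SE) and lower in L-GMP than in HSC (-0.62 ± 0.14 SE).

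Rab7b, which moves cargo from endosomes to the trans-Golgi network, depended on the probe set. The set of highest mean in the sorted experiment was 8.40 to 9.28 in L-GMP and 8.22 to 8.80 in GMP, and was not called between them (0.30 ± 0.18 SE), though it was higher in L-GMP than in CMP (0.59 ± 0.18 SE, adjusted p = 0.0132). The other kept set was at 8.50 (lowest), 9.03 (median) and 9.20 (highest) in L-GMP, and at 8.68, 8.84, 8.92 and 8.60 in GMP. By that set Rab7b was near the floor elsewhere, at 5.27, 5.27, 5.60, 5.27 and 5.27 in HSC, and 5.27, 6.12 and 6.25 in MEP. CMP lay between, at 6.68, 6.53, 6.37 and 6.95. On it, L-GMP was at least 11.9-fold higher than HSC, which had 4 of 5 arrays at the floor (3.57 ± 0.16 SE). That set passed the filter through 6 L-GMP, 4 GMP and 1 CMP arrays, so its contrasts with HSC and MEP are given with no p. MEP against GMP gave -2.88 ± 0.21 SE, while the set of highest mean gave -0.10 ± 0.22. The 11 measured monocyte and macrophage markers had summed levels of 10840 to 12487 in L-GMP, 8523 to 9708 in GMP, 5772 to 6934 in CMP, 2259 to 4561 in HSC and 1253 to 2174 in MEP. Like this Rab7b set, they were lower in HSC, CMP and MEP than in L-GMP and GMP, while HSC stood above MEP by these sums and mostly below it by Rab7b. Cd14 and Itgam of that list were at the floor on all HSC, CMP and MEP arrays, and the part of such cells in the Rab7b levels was not tested.

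Of 7 secretory granule Rab genes, 5 were tested, and Rab3d alone was called in L-GMP against GMP (20%, beside 33.5% of all genes). Rab3d, found on granules of exocrine and mast cells, was at 8.49 (lowest), 8.91 (median) and 9.16 (highest) in L-GMP, and at 8.38, 8.36, 8.46 and 8.51 in GMP. The lowest L-GMP array overlapped with GMP. The change was 0.44 ± 0.12 SE, 1.36-fold (adjusted p = 0.00769). In MEP it was 7.37, 7.60 and 7.57, below every GMP array (-0.91 ± 0.14 SE, adjusted p = 4.13e-05). The 3 other Rab3d probe sets gave 0.63, 0.36 and 0.06 in L-GMP against GMP, with only the first called (adjusted p = 0.000356). Mast cell, basophil and eosinophil markers, 8 measured, summed to 4435 to 6564 in L-GMP, 2736 to 5138 in GMP and 562 to 882 in MEP. Ms4a2 and Fcer1a of that list were at the floor throughout L-GMP.

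Rab37, another Rab of secretory granules, was highest in CMP at 6.94, 6.97, 6.67 and 6.85. GMP arrays were lowest and spread out, at 6.21, 5.88, 5.27 and 5.38, the third of them at the floor. CMP exceeded GMP without overlap, by 1.17 ± 0.19 SE or 2.26-fold, a difference that the filter had picked, since Rab37 passed through 3 CMP arrays. MEP was at 6.54, 6.54 and 6.70 and HSC at 6.35 to 6.72. In L-GMP it was 5.62 (lowest), 5.85 (median) and 6.37 (highest), not called against GMP, and 0.91 ± 0.17 SE below CMP. Rab27a, which tethers lytic granules and melanosomes, varied widely among replicates, from 5.27 to 7.81 in L-GMP and 5.58 to 7.31 in GMP, and was called in no comparison. Rab3a and Rab3c were also called in none.

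On early endosomes and phagosomes, 8 of 9 members were tested, and Rab24 alone was called in L-GMP against GMP (12.5%, beside 33.5% of all genes). Rab24, linked to autophagosome clearance, was at 8.11 (lowest), 8.47 (median) and 8.73 (highest) in L-GMP, and at 7.68, 7.78, 7.93 and 8.05 in GMP. L-GMP lay above GMP on every array (0.57 ± 0.12 SE, 1.49-fold, adjusted p = 0.000789). Its second probe set gave 0.63 ± 0.16 SE (adjusted p = 0.00429 over 12217 probe sets). Rab24 was called in no comparison among the normal sorts by its set of highest mean.

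Rab31, which works between the trans-Golgi network and endosomes, was low in MEP. It was at 8.12, 8.04 and 7.16 in MEP, and at 10.24, 10.22, 10.26 and 10.28 in GMP. HSC arrays lay at 9.93 to 10.16, CMP arrays at 9.84 to 10.16 and L-GMP arrays at 10.27 to 10.53. The MEP arrays thus stood apart from all others. MEP against GMP gave -2.48 ± 0.16 SE, 5.57-fold lower (adjusted p = 8.51e-11), and L-GMP against MEP 2.58 ± 0.15 SE (adjusted p = 4.16e-12). Summed monocyte and macrophage markers, given above, were also lowest in MEP, and their part in the Rab31 levels was not tested. Rab22a, the close relative of Rab31, was called in no comparison of the sorted experiment by its set of highest mean. Another kept Rab22a set was at 6.15 to 6.47 in CMP and 6.79 to 7.04 in MEP.

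Rab21, which moves integrins through early endosomes, shared a high level between L-GMP and GMP by its set of highest mean. It was at 9.47 (lowest), 9.63 (median) and 9.76 (highest) in L-GMP, and at 8.76, 8.52, 8.64, 8.76 and 8.74 in HSC. The groups were separate, with a change of 0.95 ± 0.09 SE, 1.93-fold (adjusted p = 1.23e-08). GMP stood at 9.38, 9.49, 9.48 and 9.63, overlapping L-GMP. A second kept Rab21 set was at 7.48 to 8.28 in L-GMP, 8.10 to 8.36 in GMP and 6.99 to 7.47 in HSC. By the set of highest mean, Rab21 was at 8.74, 8.49 and 8.53 in MEP, which is -0.91 ± 0.11 SE against GMP (adjusted p = 1.51e-06). Of the Rab5 genes, the core Rabs of early endosome fusion, Rab5a was called in no comparison. Rab5b, which passed the filter through 0 L-GMP arrays, was lower in L-GMP than in CMP (-0.64 ± 0.23 SE) and MEP (-0.85 ± 0.25 SE). Rab5c was higher in L-GMP than in HSC (0.66 ± 0.26 SE). Rab17 was called in no comparison by its set of highest mean.

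Recycling Rab genes included Rab4a, the member with the widest range of means among the normal sorts. Of the 10 tested, Rab4b and Rab14 rose and Rab10 fell in L-GMP against GMP (30%, beside 33.5% of all genes). Rab4a and Rab4b, close relatives that return receptors from early endosomes to the surface, ran in opposite directions in MEP. Rab4a was at 9.18, 9.03 and 9.01 in MEP, and at 5.51, 5.94, 5.84 and 5.27 in GMP. No MEP array came near the GMP arrays. The change was 3.43 ± 0.25 SE, 10.8-fold higher, given with no p since Rab4a passed the filter through its HSC, CMP and MEP arrays. HSC arrays were at 7.34, 7.56, 7.56, 7.95 and 7.66 (HSC against GMP 1.97 ± 0.22 SE, 3.93-fold), and CMP arrays at 7.05, 6.84, 6.81 and 7.13.

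Rab4a in L-GMP was 5.27 (lowest), 5.46 (median) and 6.70 (highest), which overlapped GMP and lay below all HSC, CMP and MEP arrays. The change of L-GMP against HSC was -1.96 ± 0.20 SE, 3.88-fold lower. A second Rab4a probe set was above the floor on the MEP arrays at 7.07, 6.93 and 7.19, and at the floor on every array of GMP and L-GMP (MEP against GMP 1.79 ± 0.10 SE). That set passed the filter through the MEP arrays alone, so this contrast is given with no p. On that set HSC against GMP gave 0.10 ± 0.09 and was not called. Megakaryocyte markers, 8 measured, summed to 8822 to 9589 in MEP, 6572 to 13925 in CMP, 3497 to 4078 in HSC, 1179 to 2016 in GMP and 682 to 1078 in L-GMP. Their part in the Rab4a levels was not tested.

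Rab4b was at 9.58 (lowest), 9.67 (median) and 9.79 (highest) in L-GMP, and at 8.75, 9.05, 9.04 and 9.17 in GMP. The L-GMP arrays lay above every array of every other sort. The change against GMP was 0.68 ± 0.08 SE, 1.60-fold (adjusted p = 2.66e-06). In MEP it was lowest, at 8.70, 8.68 and 8.51, and the change of MEP against GMP was -0.37 ± 0.10 SE (adjusted p = 0.00786). HSC arrays lay at 9.16 to 9.36 and CMP arrays at 8.92 to 9.17.

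Rab10, which delivers recycling cargo such as the glucose transporter GLUT4 to the surface, was at 9.46 (lowest), 9.53 (median) and 9.81 (highest) in L-GMP, and at 9.93, 9.99, 10.11 and 9.94 in GMP. L-GMP lay below GMP without overlap (-0.43 ± 0.08 SE, 1.35-fold lower, adjusted p = 0.000254). The other Rab10 probe sets gave -0.54 (adjusted p = 0.03) and -0.34 (adjusted p = 0.0955) for L-GMP against GMP. They did not share one order among the normal sorts: HSC against GMP was 0.37 (adjusted p = 0.00125) by the set of highest mean and -0.61 (adjusted p = 0.00402) by another. Rab14, of traffic between Golgi and endosomes, rose by 0.21 ± 0.08 SE in L-GMP against GMP by its set of highest mean (adjusted p = 0.0354). All other kept Rab14 sets overlapped between these groups. They included a set at 7.32 to 8.02 in L-GMP and 7.93 to 8.17 in GMP. A further set was at 7.61 to 8.21 in L-GMP and 7.27 to 7.66 in GMP.

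Rab8a, Rab8b, Rab11a, Rab11b, Rab13 and Rab25 were called in no comparison of the sorted experiment by the set of highest mean. Rab11a, the main Rab of the slow recycling endosome, had a second set at 6.23 to 6.94 in L-GMP and 7.11 to 7.43 in GMP, which did not overlap. On that set it was lower in L-GMP by 0.82 ± 0.18 SE (adjusted p = 0.00111 over 12217 probe sets), while the brighter set gave 0.15 ± 0.12 SE (adjusted p = 0.366). Of 16 members with several kept probe sets, 0 had sets called in opposite directions in L-GMP against GMP.

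**Figure D4:**
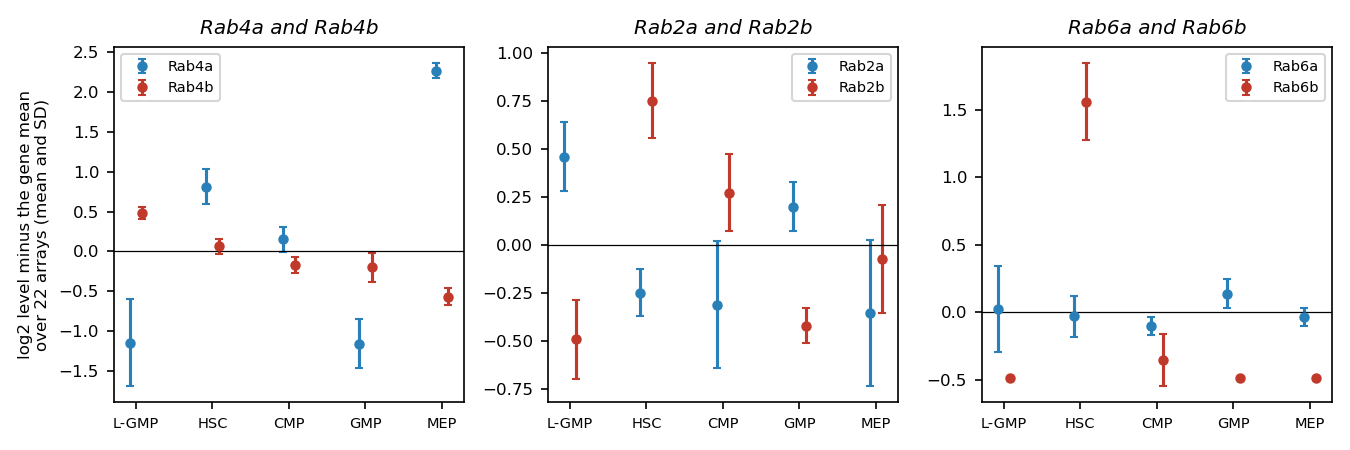
Group mean of the log2 level minus the mean of the same gene over 22 arrays, with SD bars, for Rab4a and Rab4b, Rab2a and Rab2b, and Rab6a and Rab6b in the sorted experiment. Rab4a is highest and Rab4b lowest in MEP, Rab2b is highest in HSC, and Rab6b stands above its floor in HSC while Rab6a varies little.

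Of the 10 tested Rab genes of the ER and Golgi, Rab43 alone was called in L-GMP against GMP (10%, beside 33.5% of all genes), and 7 differed among the normal sorts (70%, beside 46.7%), Rab6b among them. Rab6b, a relative of Rab6a best known from neurons, was above the floor mainly in HSC. It was at 7.52, 7.30, 6.88, 7.31 and 7.62 in HSC, and at the floor of 5.27 on all GMP, all MEP and all L-GMP arrays. CMP arrays were at or just above the floor, at 5.32, 5.35, 5.27 and 5.70. HSC was at least 4.14-fold higher than GMP (2.05 ± 0.11 SE), and L-GMP at least 4.14-fold lower than HSC (-2.05 ± 0.10 SE). Rab6b was tested only because of its HSC arrays, so these sizes are a description. Rab6a, of Golgi-to-ER transport, was called in no comparison by its set of highest mean, and the difference between the 2 genes was not tested.

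Rab2b, which with Rab2a acts between ER and Golgi and in autophagy, was at 9.20, 9.0, 8.69, 8.89 and 9.08 in HSC, and at 7.70, 7.92, 7.78 and 7.80 in GMP. HSC was higher without overlap (1.17 ± 0.13 SE, 2.25-fold, adjusted p = 4.82e-07). Its other kept probe sets gave 1.02 and 0.91, both called. In L-GMP it was 7.52 (lowest), 7.69 (median) and 8.08 (highest), like GMP, and lower than in HSC by 1.24 ± 0.12 SE (adjusted p = 2.05e-08). Rab2a went the other way by its brightest set, with HSC against GMP at -0.45 ± 0.15 SE (adjusted p = 0.0213). The 3 other Rab2a sets gave -0.04, 0.58 and 0.07 and were not called, so this direction rests on 1 probe set.

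Rab43, a Golgi Rab, was at 8.10 (lowest), 8.23 (median) and 8.40 (highest) in L-GMP, and at 7.50, 7.93, 7.55 and 7.59 in GMP. GMP was the lowest sort, and L-GMP did not overlap it (0.58 ± 0.13 SE, 1.5-fold, adjusted p = 0.00104). HSC arrays at 7.93 to 8.57 and MEP arrays at 8.09 to 8.35 covered the L-GMP levels. Its second probe set gave 0.26 (adjusted p = 0.241). Rab33b, a Golgi Rab that binds the autophagy protein ATG16L1, was higher in HSC than in GMP (0.46 ± 0.11 SE) and MEP (0.81 ± 0.12 SE). Rab18, of ER and lipid droplets, was higher in MEP than in GMP (0.51 ± 0.15 SE). Rab1a, of ER-to-Golgi transport, was lower in MEP than in GMP (-0.32 ± 0.09 SE). Rab1b was called only in L-GMP against MEP (0.49 ± 0.17 SE), and Rab33a in none.

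Rab23, which restrains hedgehog signalling at the cilium, was lowest in L-GMP. It was at 6.0 (lowest), 6.11 (median) and 6.14 (highest) in L-GMP, and at 6.50, 6.44, 6.41 and 6.22 in GMP. Groups were separate by a small step (-0.29 ± 0.09 SE, adjusted p = 0.0185). HSC was highest at 6.89, 6.90, 7.12, 6.97 and 6.84, above GMP by 0.55 ± 0.10 SE, and was the sort through which Rab23 passed the filter. Rab28 was lower in HSC than in GMP (-0.40 ± 0.14 SE) and Rab40c, which joins a ubiquitin ligase, was higher (0.48 ± 0.12 SE).

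The proteins that prenylate, activate, inactivate and read out Rab GTPases changed in both directions in L-GMP against GMP. Of 20 tested exchange factors 3 rose and 2 fell, of 15 GTPase activating proteins 1 rose and 2 fell, of 24 effectors 6 rose and 5 fell, and of 8 prenylation and membrane extraction genes 1 rose and 2 fell. The called shares were 25%, 20%, 45.8% and 37.5%, beside 33.5% of all genes (15.2% higher and 18.3% lower). Their median log2 changes were -0.02, 0.17, 0.18 and 0.08 in the same order, beside 0.01 over all genes. The only called gene of these lists with a change of at least 2-fold was Rabgap1l, a GTPase activating protein, at 7.81 ± 0.50 in L-GMP (SD, n = 6) and 6.63 ± 0.39 in GMP (n = 4). It rose by 1.18 ± 0.23 SE, 2.27-fold (adjusted p = 0.000431).

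In MEP against GMP, of 20 exchange factors 3 rose and 4 fell, of 15 GTPase activating proteins 1 rose and 2 fell, of 24 effectors 2 rose and 6 fell, and of 8 prenylation genes 2 rose and 0 fell. The called shares were 35%, 20%, 33.3% and 25%, beside 27.5% of all genes (11.9% higher and 15.6% lower). The following were chosen after their values were seen. Mical1, an actin-oxidising effector of Rab1 and Rab35, was at 6.57 ± 0.70 in MEP (SD, n = 3) and 8.82 ± 0.20 in GMP (n = 4), a change of -2.25 ± 0.21 SE (adjusted p = 3.01e-08). Plin3, an effector of Rab9, fell by 1.74 ± 0.20 SE on the log2 scale in MEP (adjusted p = 6.05e-07), and Evi5, a GTPase activating protein, fell by 1.60 ± 0.19 SE (adjusted p = 1.21e-06). Osbpl1a, an oxysterol-binding effector of Rab7, was higher in HSC than in GMP by 2.22 ± 0.25 SE, 4.67-fold (adjusted p = 4.12e-07).

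The transduced experiment asks whether Rab genes differ once GMP express MLL-AF9. None of the 35 tested members was called by limma, beside 0.0276% of all genes, which is 2 genes. An unadjusted p under 0.05 was reached by 6 members, beside 10.2% of all genes, and 10 members did not overlap between groups, beside 17.5%. The median log2 change of the members was -0.10 and that of all genes 0.02, with 8 of 35 members and 3866 of 7235 genes above 0. Same-numbered MLL-AF9 and GFP arrays correlated, and with the replicate number as a block 1 member, Rab7b, was called lower (126 genes in all, 1.74%, with 1.53% lower).

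Rab7b had the smallest p. By its set of highest mean here, which was the other kept set in the sorted experiment, it was at 9.26, 8.82 and 9.40 in MLL-AF9, and at 10.36, 10.35 and 10.18 in GFP arrays. The groups were separate by more than the spread within either. The change was -1.14 ± 0.17 SE (limma, adjusted p = 0.18 without the block and 0.0345 with it). Its other set gave -0.14 ± 0.15 SE. Monocyte and macrophage markers, 11 measured, summed to 17030 to 30405 in MLL-AF9 and 35487 to 55681 in GFP, all 10 tested lay below 0, 0 were at the floor in either group, and their part in the Rab7b change was not tested.

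The next members by p were also lower in MLL-AF9 by value, though none passed the test. Rab32 was at 9.42, 9.36 and 9.88 in MLL-AF9, and at 10.47, 10.09 and 10.13 in GFP (-0.68 ± 0.18 SE, adjusted p = 0.395). Rab3d was at 9.78, 9.40 and 9.51 in MLL-AF9, and at 10.29, 9.96 and 9.81 in GFP (-0.46 ± 0.17 SE, adjusted p = 0.477). Both sets of arrays were separate for each gene by a gap smaller than the change.

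Rab8b, of plasma membrane delivery, was at 11.12, 11.25 and 11.12 in MLL-AF9, and at 11.69, 11.36 and 11.46 in GFP (-0.34 ± 0.13 SE, adjusted p = 0.477). Rab24 was at 10.09, 9.82 and 9.87 in MLL-AF9, and at 10.59, 10.21 and 10.20 in GFP (-0.41 ± 0.15 SE, adjusted p = 0.477). Rab29 was at 10.87, 10.69 and 10.90 in MLL-AF9, and at 11.21, 11.11 and 11.00 in GFP (-0.29 ± 0.12 SE, adjusted p = 0.483). All 3 genes had every MLL-AF9 array below every GFP array. Rab24, Rab29 and Rab3d were higher in L-GMP than in GMP in the sorted experiment, and the difference between the experiments was not tested.

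Rab38, low in L-GMP, was well above the floor in all 6 transduced arrays. It was at 10.46, 11.08 and 11.08 in MLL-AF9, and at 9.14, 10.49 and 10.44 in GFP. The lowest MLL-AF9 array fell within the GFP range (0.85 ± 0.38 SE, adjusted p = 0.504, and 0.0769 with the block).

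**Figure D5:**
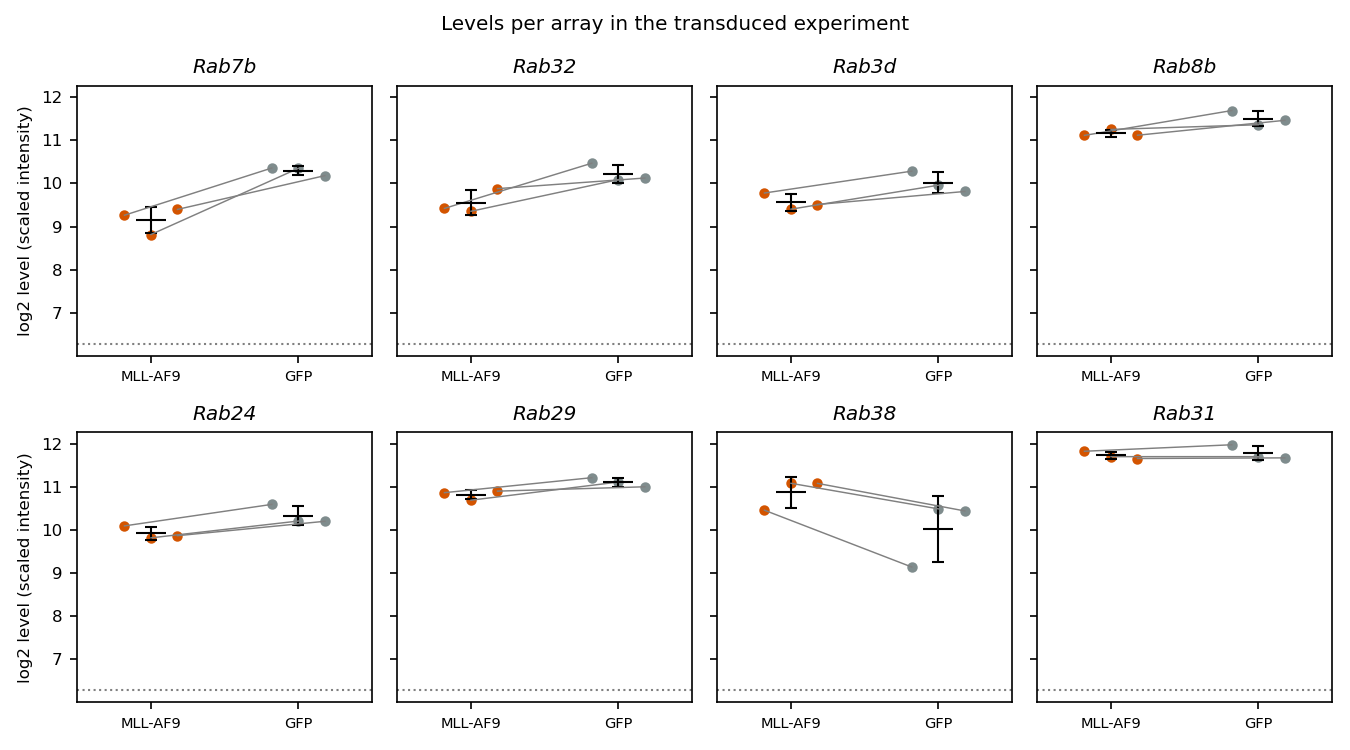
Log2 level on each array of the transduced experiment (points, joined by replicate number) for 8 Rab genes in MLL-AF9 and GFP, with the mean and SD in black and the floor as a dotted line. Rab7b lies at 8.82 to 9.40 in MLL-AF9 and 10.18 to 10.36 in GFP, while Rab38 lies far above the floor in both groups.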

How the data were processed

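The deposited files hold linear intensities, 1 per probe set, which the authors computed with MAS5 (version unstated) per the submitters' processing notes. Each array held 187 to 413 values at or below 0, whose origin is not given in the sources used here. The labels give about 10000 sorted cells per sample, and groups and replicate numbers came from the sample titles. After removal of 64 control probe sets, each array was scaled to a common mean trimmed by 2% at each end (factors 0.923 to 1.12), floored at the 25th percentile of its experiment (78.0 transduced, 38.7 sorted) and taken to log2. Such scaling hides differences in total RNA content, and floored values have no order. Probe sets that passed the experiment median on 3 or more arrays were kept (11524 and 13439), and each gene took its kept set of highest mean.

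Groups were compared with limma 3.58.1 (lmFit, eBayes, two-sided) in R 4.3.3, the 22 sorted arrays in 1 fit. Second probe sets of a member were tested in a fit over all kept probe sets of 1 gene. The test was run on simulated data: of 100 genes changed by 1 on the log2 scale it recovered 94 in L-GMP against GMP and 64 in MLL-AF9 against GFP. Another 100 genes were changed by 2, of which it recovered 99 and 96 in that order. Recovery on floored values or on correlated arrays was not tested. On the deposited MLL-AF9 and GFP arrays, 2 of 7235 genes were called, and Rab7b at -1.14 was not among them. Same-numbered arrays of the transduced experiment correlated in 3 of 3 pairs after removal of group means (r 0.379 to 0.596, over genes that are no independent replicates). Of these 6 arrays, 4 correlated best with their own number, and the labels state no pairing. Array number, 3 to 6 a group, limits the precision. The Rab genes, role lists and marker lists were chosen with earlier results of these data known. Values in every sample are given for the called members of largest change in each comparison opened (8 in L-GMP against GMP and among normal sorts, 5 in the others), or the 6 of smallest p where none was called. The lists of exchange factors, GTPase activating proteins, effectors and prenylation genes name called genes of at least 2-fold in L-GMP against GMP, and others only where stated. Alternatives were another normalization, no filter, no floor, the mean of probe sets, the replicate block, the 3′ to 5′ ratio, only the groups compared, and leaving out arrays. Counts that leave out genes passing the filter through 1 group alone were taken from the same fit and chosen after seeing the data.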

Additional observations from a re-analysis of the deposited data

Results flagged for a closer look

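A single array lay far from the rest of its group in 7 of 170 sets of a tested Rab gene and a group of 4 or more arrays, and chance flags about 1 in 20 such sets. On L-GMP replicate 4, 3 members stood apart. Rab4a was 6.6981 there, against 5.27 to 5.77 on the other L-GMP arrays, Rab31 was 10.5278, against 10.27 to 10.34, and Rab25 was 7.2609, against 7.69 to 7.91. On L-GMP replicate 2, Rab10 was 9.8114, against 9.46 to 9.56 on the others. Replicate 4 of HSC was low in Rab24 at 7.4632, against 7.95 to 8.07, and in Rab29 at 9.4011, against 9.68 to 9.75. Replicate 1 of GMP was high in Rab33a at 7.1334, against 6.21 to 6.35. Leaving out each of these arrays moved no named member across the threshold.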

How the results depend on the processing

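Counts of called Rab genes stayed within 1.5 times of those reported under quantile normalization, no filter, no floor, the mean of probe sets, the 3′ to 5′ covariate and only the groups compared. Of the other alternatives, the replicate block called 1 member in MLL-AF9 against GFP in place of 0, Rab7b at -1.14 (adjusted p = 0.0345). Without replicate 1 of HSC, CMP and GMP, CMP against GMP called 6 in place of 10. Of named members, 997 alternative values kept their direction and side of the threshold and 0 reversed. These values include the range of means of the F test, which cannot reverse, and contrasts that the filter favoured. Leaving out 1 array at a time gave 10 to 11 calls in L-GMP against GMP, 19 to 23 against HSC, 14 to 19 against CMP and 18 to 24 against MEP. Among normal sorts it gave 19 to 23 by the F test, 17 to 21 in HSC against GMP, 1 to 6 in HSC against CMP, 11 to 16 in HSC against MEP, 6 to 11 in CMP against GMP, 16 to 17 in MEP against GMP and 4 to 8 in MEP against CMP, and 0 to 0 in MLL-AF9 against GFP. In the sorted experiment same-numbered arrays correlated above 0.1 in 18 of 37 pairs (r -0.493 to 0.528 across genes), and 6 of 21 arrays correlated best with their own number, so the block was not taken as a pairing. It gave 10 calls in L-GMP against GMP (11 without), 20 in HSC against GMP (19) and 17 in MEP against GMP (17). Rab37 was not tested in every alternative, since it passed the filter through 3 CMP arrays. Levels near the floor carry no order, which limits Rab6b, Rab4a and Rab38.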

Other observations

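Partners of the Rab GTPases also differed between HSC and GMP. Of the tested genes, 5 exchange factors rose and 4 fell in HSC (of 20), 6 GTPase activating proteins rose and 2 fell (of 15), and 6 effectors rose and 2 fell (of 24), beside 41.2% of all genes called (19.4% higher and 21.8% lower). The following were chosen after their values were seen. Ehbp1, an effector of Rab8 and Rab10, was at 7.13 ± 0.16 in HSC (SD, n = 5) and 5.64 ± 0.26 in GMP (n = 4), a log2 change of 1.49 ± 0.19 SE, given with no p since it passed the filter through its HSC arrays alone. Gorasp2, a Golgi stacking protein that binds Rab2, was at 7.51 ± 0.29 in HSC and 8.99 ± 0.19 in GMP (-1.48 ± 0.18 SE, limma, adjusted p = 1.08e-06).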
